A study of Rattus norvegicus with 6 samples.

Results

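Alcohol dehydrogenases (ADH) and aldehyde dehydrogenases (ALDH) were followed in the liver of rats fed a Western diet (WD) or a control diet (CD), in total RNA and in 2 fractions of a sucrose gradient. The 10 genes were Adh1, Adh4, Adh5, Aldh1a1, Aldh2, Aldh3a2, Aldh6a1, Aldh7a1, Aldh8a1 and Aldh9a1, and each was taken at the locus that carries its symbol. Of the 10 genes, 8 had a locus with that symbol among 33022 loci, of which 32158 carried a symbol at all. No locus carried the symbol Adh1 or Adh5, and these 2 genes were not analysed here. None of the 8 symbols occurred on more than 1 locus, and all 8 were among the 10201 loci compared, which carry a symbol and average 1 FPKM or more over the 6 libraries (FPKM, fragments per kilobase of transcript, scaled by the mapped fragments of the library).

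The animals were male obesity-prone Sprague Dawley rats, a strain selected for weight gain, which received the CD or the WD ad libitum for 2 weeks and were refed after an overnight fast. The WD is rich in milk fat and sucrose and contains cholesterol. RNA came from the liver, either whole (total RNA) or from fractions of the gradient. The light fraction held mRNAs with up to 3 bound ribosomes, and the heavy fraction held those with at least 4. The gradients were made from the left lobe, and the paper does not name the lobe used for total RNA. RNA from 3 rats was pooled for each combination of diet and RNA, so that 6 groups were measured in 1 library each. No value therefore has a replicate, no test between diets could be made, and a difference described below is a difference between those libraries.

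Alcohol dehydrogenases oxidize alcohols, retinol among them, to aldehydes with NAD as the acceptor, and aldehyde dehydrogenases oxidize the aldehydes to carboxylic acids. Liver is the main site of both steps and clears ethanol through acetaldehyde to acetate. Most ALDH enzymes, however, serve steps of ordinary metabolism, among them the breakdown of amino acids, fatty aldehydes, choline, carnitine precursors and thymine. Hepatocytes are the principal source of these mRNAs in liver. In bulk tissue, fewer cells of a type and less RNA per cell cannot be told apart.

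Ribosome association of mRNAs that begin with a C and an unbroken run of pyrimidines (a terminal oligopyrimidine, or TOP, start) is known to respond to feeding, so the annotated starts of the dehydrogenase genes were read from RefSeq (assembly GRCr8), where 7 of the 8 genes measured had a start and Aldh2 had none in the table used. No start of these 7 genes carried a C followed by at least 4 more pyrimidines, compared with 881 of 33469 RefSeq starts (2.63%). A count of 0 of 7 does not stand apart from that share. The paper also describes TOP-like mRNAs, with a pyrimidine tract within 4 nucleotides of the start, and these were not counted here. Aldh9a1 and Aldh7a1 begin with a G, but an unbroken pyrimidine run opens within their first 4 transcribed bases. Aldh1a1 is the only one of the 7 that begins with a C. Aldh8a1 differed from the others in the direction of its levels between the fractions. Adh4 is the only alcohol dehydrogenase of the 10 with a record of its symbol. The sequences of Aldh1a1, Aldh8a1 and Adh4 are given below. Each runs 5′ to 3′ along the gene's strand, from 10 bases before the start through the first 20 transcribed bases, and capitals mark the pyrimidine run that begins at the first transcribed base. The windows are chr1:227537610-227537639 on the plus strand for Aldh1a1, chr1:18003497-18003526 on the plus strand for Aldh8a1 and chr2:229622082-229622111 on the plus strand for Adh4.
Aldh1a1: ctgagcctgtCacctgtgttccaggagcca
Aldh8a1: ggcagtcacagtgagctgagtacaggctga
Adh4: gaggtgaaaggccagagtcagaaggacact
In Aldh1a1 the run was 1 base long, and Aldh8a1 and Adh4 began with a G. These are single annotated starts, and the starts used in these livers were not measured.

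Each library's level is given first, with the genes in order of their roles. Adh4, an alcohol dehydrogenase active on retinol and on longer alcohols, spans 2:243700783-243740899 (assembly Rnor_6.0, as are all loci that follow). Its level was 66.0 FPKM in CD total RNA, 68.2 in WD total RNA, 75.6 (CD) and 40.2 (WD) in the light fractions, and 98.0 (CD) and 83.8 (WD) in the heavy fractions. The WD light fraction was the lowest of the 6 and the heavy fractions were the highest. Its record merges 3 transcript starts and may hold reads of the neighbouring Adh5. Values given below for Adh4 are those of this record.

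The absence of Adh1 and Adh5 bears on how the neighbouring records are read. In RefSeq the order on chromosome 2 is Adh7, Adh1 (listed there as Adh1c), Adh6a, Adh6, Adh4, Adh5 and Metap1. The deposited record named Adh6 spans 2:243550626-243687857 with 2 starts, and it held 473 FPKM in CD total RNA, 405 in WD total RNA, 305 (CD) and 406 (WD) in the light fractions, and 431 (CD) and 398 (WD) in the heavy fractions. This was the highest level of any ADH record, whereas Adh6a, placed at the same span, was listed at 0 in every library. The Adh7 record ends at 2:243516532, before the Adh6 record, and RefSeq places Adh1 directly after Adh7. The Adh4 record ends at 2:243740899 and the Metap1 record begins at 2:243744619, and RefSeq places Adh5 between Adh4 and Metap1. The Adh6 record may therefore hold reads of Adh1, and the Adh4 record reads of Adh5. This was not tested, and the RefSeq order is that of another assembly.

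Aldh2 (12:40466494-40498752) encodes the mitochondrial enzyme that clears most acetaldehyde, and Aldh1a1 (1:238222520-238264330) a cytosolic enzyme that oxidizes retinal to retinoic acid. Aldh2 was at 183 FPKM in CD total RNA, 182 in WD total RNA, 42.0 (CD) and 105 (WD) in the light fractions, and 223 (CD) and 278 (WD) in the heavy fractions. Aldh1a1 was at 12.2 FPKM in CD total RNA, 12.3 in WD total RNA, 4.47 (CD) and 6.46 (WD) in the light fractions, and 21.3 (CD) and 21.4 (WD) in the heavy fractions. Both genes had their lowest value in the CD light fraction and their highest values in the heavy fractions, and in total RNA each was nearly equal in the 2 diets.

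Aldh3a2 (10:47525485-47546345) encodes the microsomal fatty aldehyde dehydrogenase, which also acts on the aldehyde formed from phytol. It was at 232 FPKM in CD total RNA, 202 in WD total RNA, 188 (CD) and 148 (WD) in the light fractions, and 281 (CD) and 270.3 (WD) in the heavy fractions. The WD library was the lower one in total RNA and in each fraction, by the widest margin in the light fraction. Its record merges 2 starts.

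A further 4 genes act in amino acid, pyrimidine and amine breakdown. Aldh6a1 (6:108123815-108167185), the methylmalonate semialdehyde dehydrogenase of valine and thymine catabolism, was at 179 FPKM in CD total RNA, 197 in WD total RNA, 230.3 (CD) and 187 (WD) in the light fractions, and 349.7 (CD) and 340.5 (WD) in the heavy fractions. Aldh7a1 (18:51619006-51651267), which oxidizes the semialdehyde of the lysine pathway and betaine aldehyde, was at 140.5 FPKM in CD total RNA, 153 in WD total RNA, 87.6 (CD) and 73.3 (WD) in the light fractions, and 122 (CD) and 129 (WD) in the heavy fractions. Aldh6a1 was most abundant in the heavy fractions, whereas Aldh7a1 was most abundant in total RNA.

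Aldh9a1 (13:85580827-85597493), which acts on aminobutyraldehyde and on the aldehyde precursor of carnitine, was at 201 FPKM in CD total RNA, 206 in WD total RNA, 133 (CD) and 123 (WD) in the light fractions, and 259 (CD) and 214 (WD) in the heavy fractions. Aldh8a1 (1:16910068-16930481), an aldehyde dehydrogenase of the kynurenine branch of tryptophan breakdown, was at 351 FPKM in CD total RNA, 327 in WD total RNA, 485 (CD) and 245 (WD) in the light fractions, and 217 (CD) and 159 (WD) in the heavy fractions. Aldh9a1 had lower values in the light than in the heavy fraction. Aldh8a1 was the reverse, with its highest value of all in the CD light fraction and its lowest in the WD heavy fraction.

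**Figure D1:**
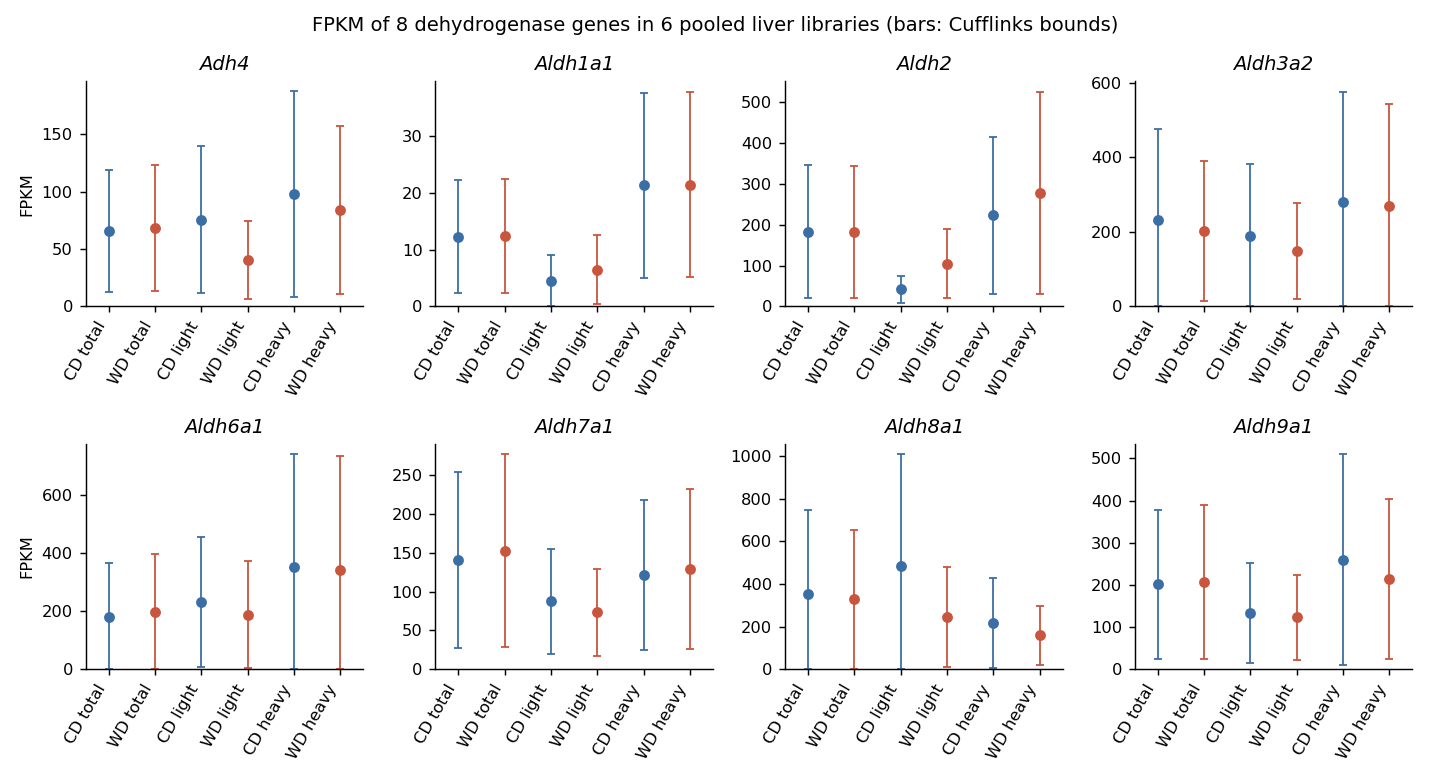
Level of the 8 dehydrogenase genes in each of the 6 pooled libraries, in FPKM on axes that start at 0 and differ between panels (CD in blue, WD in red). Bars are the lower and upper bounds that Cufflinks gave for each estimate. The 2 total RNA points of Aldh2 sit at 183 and 182 while its light fraction points sit at 42.0 and 105, and the bars of each gene overlap between diets.

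By level in CD total RNA, the order was Aldh8a1, Aldh3a2, Aldh9a1, Aldh2, Aldh6a1, Aldh7a1, Adh4 and Aldh1a1. Ranked among the 10201 loci, Aldh8a1 was at place 195, Aldh7a1 at place 433, Adh4 at place 836 and Aldh1a1 at place 3327. The Cufflinks bounds of neighbours in this order overlapped for every neighbouring pair. The bounds were wide: for Aldh8a1 in the CD light fraction they ran from 0 to 1008 FPKM. They overlapped for all 8 genes in each of the 5 comparisons of 2 libraries described below. The share of all loci whose bounds overlap was not computed, so this count is not read as particular to these genes.

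The number of fragments behind each value was inferred for 6 of the 8 genes, those whose record has 1 start, because their FPKM values are whole multiples of 1 step. Aldh1a1 rested on between 7 and 32 fragments per library, Aldh2 on between 55 and 351, and Aldh8a1 on between 296 and 1040. Intervals of 95% given with a ratio below are exact binomial ones computed from these numbers (for ribosome density, the exact interval of an odds ratio). They cover counting error only, not variation between rats, and reads amplified by PCR and carrying no molecular identifiers need not come from separate molecules. No interval could be given for Adh4 and Aldh3a2.

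The first comparison asked whether the WD altered the abundance of the dehydrogenase mRNAs in total RNA. In this comparison, the 8 genes differed little between the diets: their ratios of WD to CD lay between 0.868 for Aldh3a2 and 1.10 for Aldh6a1. A ratio of at least 1.5 was called higher and one of at most 0.75 lower, and on this basis 0 of 8 genes were higher and 0 of 8 lower, compared with 17.7% and 22.7% of all loci compared. Abundant loci passed these limits less often, and among the 647 loci that averaged 100 FPKM or more, 4.64% were higher and 12.7% lower. Since 6 of the 8 genes belong to that class, their count is near this second background.

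The individual ratios in total RNA show how narrow the range was for genes with many fragments. Aldh2 was at 0.995 times its CD level in WD total RNA (interval 0.854 to 1.16). Aldh9a1 was at 1.03 times (0.903 to 1.17) and Aldh8a1 at 0.934 times (0.852 to 1.02). Aldh6a1 was at 1.10 times (0.985 to 1.23) and Aldh7a1 at 1.09 times (0.918 to 1.29). All 6 intervals contained 1, and that of Aldh1a1 (0.572 to 1.77 around a ratio of 1.01) was the widest. How often the intervals of other loci contained 1 was not computed. The median log2 change, taken after 0.1 FPKM was added to each level, was 0.02 over the 8 genes and 0.02 over all loci. The sign of such small differences depended on scaling, since 5 of 8 genes lay above 0 as deposited and 0 of 8 when every library was rescaled to the same sum over all loci, with or without a symbol.

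The light fraction was where the diets differed most for these genes, and the differences ran in opposite directions. Aldh2 was higher in the WD light fraction than in the CD light fraction, by a log2 change of 1.32, a ratio of 2.50 (interval 1.87 to 3.40), from 55 and 299 inferred fragments in libraries of unequal depth. Aldh8a1 was lower, by a log2 change of -0.99 and a ratio of 0.505 (0.462 to 0.552), and Adh4 was lower, by a log2 change of -0.91. The remaining 5 genes lay between the limits. Aldh1a1 was at 1.45 times its CD level (0.596 to 4.01), and Aldh3a2, Aldh6a1, Aldh7a1 and Aldh9a1 were at between 0.784 and 0.928 times theirs.

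In counts, 1 of 8 genes was higher in the WD light fraction and 2 of 8 were lower, compared with 25.9% and 26.8% of all loci, so that neither count stands apart from its background. The median log2 change was -0.28 over the 8 genes and 0.02 over all loci. As deposited, 2 of the 8 genes lay above 0 and 6 below, whereas with every library rescaled to the same sum over all loci 6 lay above and 2 below. The directions of Aldh2, Aldh8a1 and Adh4 were the same under each of 3 rescalings: the log2 change of Aldh2 was between 0.97 and 2.00, that of Aldh8a1 between -1.34 and -0.30, and that of Adh4 between -1.26 and -0.22. The calls were not all the same: with the rescaling over all loci neither Aldh8a1 nor Adh4 was called lower, and 2 genes, Aldh2 and Aldh1a1, were called higher.

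A ratio of 2 genes within a library does not depend on how libraries are scaled. Aldh2 and Aldh8a1 were paired in this way after their values were seen. Aldh2 stood at 0.0866 times the level of Aldh8a1 in the CD light fraction and at 0.428 times in the WD light fraction. In total RNA the same ratio was 0.523 in CD and 0.557 in WD, and in the heavy fraction it was 1.03 in CD and 1.75 in WD. The 2 mRNAs thus kept nearly the same proportion in total RNA of both diets and not in the fractions. As a share of the summed level of the 8 genes, Aldh2 made up 3.37% in the CD light fraction and 11.3% in the WD light fraction, and Aldh8a1 made up 38.9% and 26.4%.

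In the heavy fraction as deposited, 1 dehydrogenase gene, Aldh8a1, was past a limit. Its ratio of WD to CD was 0.732 (interval 0.627 to 0.853), just below the limit of 0.75. Aldh9a1 was at 0.826 times its CD level (0.713 to 0.957), and Aldh2 at 1.25 times (1.06 to 1.47). The ratios of the other 5 genes lay between 0.855 for Adh4 and 1.06 for Aldh7a1. In this fraction 0 of 8 genes were higher and 1 of 8 was lower, against 21.7% and 25.8% of all loci. The median log2 change was -0.05 over the 8 genes and -0.02 over all loci, and 5 of the 8 lay below 0 as deposited but 1 of 8 with the rescaling over all loci. With that rescaling Aldh8a1 was at a log2 change of -0.07 and not called, and the only call was Aldh2, higher in WD at 0.70.

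**Figure D2:**
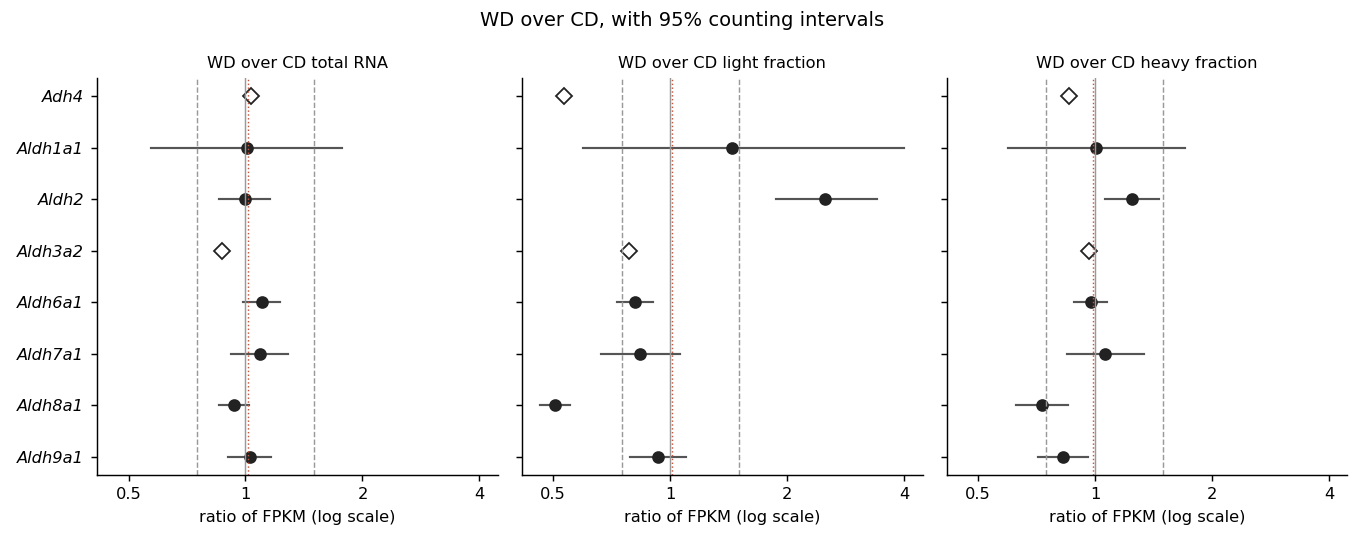
Ratio of WD to CD for the 8 genes in total RNA, the light fraction and the heavy fraction, on a log axis. Filled points carry 95% counting intervals, open diamonds are genes without inferred fragments, dashed lines mark 0.75 and 1.5, the solid line marks 1 and the dotted red line marks the median of all loci. In the light fraction Aldh2 lies at 2.50 and Aldh8a1 at 0.505, while all 8 genes in total RNA lie between 0.868 and 1.10.

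Some facts of the libraries bear on the light fraction. Summed over loci with a symbol, FPKM was between 617369 and 867734 per library and highest in the WD light fraction, and the inferred fragments in the loci compared numbered between 263581 in the CD light fraction and 561894 in the WD light fraction. The 8 dehydrogenase genes together made up 0.107% of the symbol sum in the WD light fraction, against a range of 0.183% to 0.228% over the other 5 libraries. Hemoglobin and other red blood cell genes moved with the light fraction: the summed level of 6 such genes was 105 FPKM in CD and 545 FPKM in WD, with 5 of 6 higher and Alas2 lower, whereas it was between 27.5 and 57.5 FPKM in the other 4 libraries. The summed level of 6 hepatocyte genes was 39377 FPKM (CD) and 34769 FPKM (WD) in the light fractions and from 61181 to 117635 FPKM elsewhere. Kupffer cell, stellate cell and sinusoidal endothelial genes summed to between 33.5 and 210.1 FPKM per list and library, Col1a2 was at 0 in all 6 libraries, and cholangiocyte genes summed to at most 4.35 FPKM with Krt7 and Spp1 at 0. The part of these shifts in the values of the dehydrogenase genes was not tested.

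The second question was how the level of each mRNA compared between the heavy and light fractions within each diet. FPKM is scaled within each library, so a heavy to light ratio compares an mRNA with the other mRNAs of each fraction. It does not give the amount of the mRNA in either fraction. Most of the dehydrogenase mRNAs had a higher FPKM in the heavy fraction: 7 of the 8 had a heavy to light ratio above 1 in both diets, and Aldh8a1 was below 1 in both. Among all loci compared, 35.9% were above 1 in both diets. These directions were the same under all 3 rescalings of the libraries, but with the rescaling over all loci Aldh8a1 was no longer called lower in either diet (log2 changes of -0.30 in CD and -0.07 in WD), nor in WD with the rescaling over loci with a symbol (-0.32). When the heavy fraction was set against total RNA, Aldh7a1 took the other direction in both diets, with a log2 change of -0.21 in CD and -0.24 in WD.

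Aldh2 and Aldh1a1, which act on acetaldehyde and retinal, had the highest heavy to light ratios of the 8 genes. In CD the ratio was 5.31 for Aldh2 (interval 3.96 to 7.23) and 4.76 for Aldh1a1 (2.05 to 12.8). In WD it was 2.65 for Aldh2 (2.26 to 3.10) and 3.32 for Aldh1a1 (1.87 to 5.99). The intervals of the 2 genes overlapped in each diet, so their order could not be told from these counts. The interval of Aldh1a1 also overlapped that of Aldh9a1 in each diet. With the heavy fraction set against total RNA, the log2 change of Aldh2 was 0.28 in CD and 0.61 in WD, much smaller than against the light fraction. On that measure Aldh2 lay below Aldh6a1 (0.97), Aldh1a1 (0.79), Adh4 (0.57) and Aldh9a1 (0.37) in CD. In WD it lay below Aldh1a1 and Aldh6a1, both at 0.79.

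Aldh8a1 was at 0.448 times its light fraction level in the CD heavy fraction (interval 0.397 to 0.504) and at 0.649 times in the WD heavy fraction (0.568 to 0.739). No interval of another gene with inferred fragments reached as low as 1. The other 5 genes, Adh4, Aldh3a2, Aldh6a1, Aldh7a1 and Aldh9a1, had ratios between 1.30 and 1.95 in CD and between 1.74 and 2.08 in WD. In CD 4 of 8 genes were called higher in the heavy fraction and 1 of 8 lower, compared with 32.9% and 36.6% of all loci. In WD 7 of 8 were higher and 1 of 8 lower, compared with 31.4% and 38.5% of all loci.

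Abundant loci were more often at higher levels in the heavy fraction than loci overall. Among those that averaged 100 FPKM or more, 45.1% were called higher in CD and 52.6% in WD. The count of 4 in CD is near that share, and the count of 7 in WD is above it. Adh4 and Aldh1a1 average less than 100 FPKM, so this share is not the background of all 8 genes. Of the 7, however, Aldh9a1, Aldh7a1, Aldh3a2 and Aldh6a1 had ratios between 1.74 and 1.83, not far above the limit of 1.5. The median log2 change from light to heavy was 0.59 over the 8 genes and 0.01 over all loci in CD, and 0.87 and 0 in WD.

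**Figure D3:**
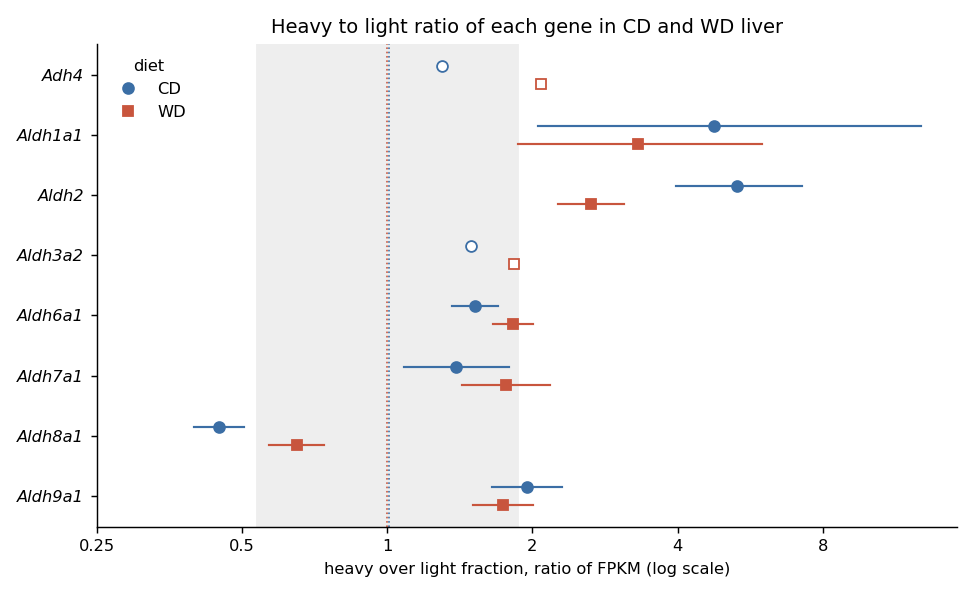
Heavy over light fraction ratio of the 8 genes in CD (blue circles) and WD (red squares), on a log axis. Lines are 95% counting intervals, open points have none, the shaded band is the interquartile range of all loci in CD and the dotted lines are their medians. Aldh8a1 lies left of 1 in both diets, and Aldh2 and Aldh1a1 lie farthest to the right.

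The third comparison asked whether the WD altered ribosome density, the heavy to light ratio in WD over that in CD. The dehydrogenase mRNAs did not share a direction. The ratio was 0.498 for Aldh2 (interval 0.352 to 0.698), lower in WD, and 1.61 for Adh4, higher in WD. Aldh1a1 was also below the lower limit, with a log2 change of -0.51, but its interval ran from 0.222 to 2.02. Aldh8a1 was at 1.45 (1.21 to 1.73), between the limits, as was Aldh6a1 with a log2 change of 0.26 (interval of the ratio 1.04 to 1.39).

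In counts, 1 of 8 genes had a higher ribosome density in WD and 2 of 8 a lower one, compared with 27.7% and 36.1% of all loci. The study set these limits on the ratio of CD to WD instead. With those limits inverted, to at least 1.33 and at most 0.667 for WD over CD, Adh4 and Aldh8a1 were higher and Aldh2 was lower, compared with 32.9% and 30.9% of all loci, and Aldh1a1 was not called. The median log2 change was 0.28 over the 8 genes and -0.02 over all loci. As deposited 5 of 8 lay above 0, compared with 6 of 8 when libraries were rescaled to the same sum over loci with a symbol and 3 of 8 when rescaled over all loci. The direction of Aldh2 and of Adh4 was the same under the 3 rescalings, at between -1.31 and -0.68 and between 0.38 and 1.01 on the log2 scale. With the heavy fraction set against total RNA instead, both took the other direction, at 0.32 for Aldh2 and -0.28 for Adh4, as did Aldh8a1 at -0.35, Aldh6a1 at -0.18 and Aldh7a1 at -0.04. The light fraction levels that enter the density of these 2 genes were 42.0 (CD) and 105 (WD) FPKM for Aldh2, and 75.6 (CD) and 40.2 (WD) FPKM for Adh4.

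Among the 3907 loci that averaged 10 FPKM or more and had a symbol of their own, the profile of Aldh2 over the 6 libraries was most like those of Klkb1, Apoe and Pacsin3. Likeness was measured as the root mean square difference of log2 values after each locus was centred on its own mean. The difference was 0.11 for Klkb1, which encodes plasma prekallikrein, 0.15 for Apoe, the apolipoprotein of remnant particles, and 0.16 for Pacsin3, a membrane-bending protein. Klkb1 was at 58.1 FPKM in CD total RNA, 61.1 in WD total RNA, 12.8 (CD) and 29.0 (WD) in the light fractions, and 60.3 (CD) and 79.6 (WD) in the heavy fractions. The CD light fraction was the lowest of the 6 and the WD heavy fraction the highest. Klkb1 shares this with Aldh2 because it was picked for its likeness, so it is no separate observation.

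Within the dehydrogenase group, the pair with the most similar profiles was Aldh3a2 and Aldh9a1, with a difference of 0.17, followed by Adh4 and Aldh3a2 with 0.19 and Aldh7a1 and Aldh9a1 with 0.21. The least similar pair was Aldh2 and Aldh8a1, with 1.34, followed by Aldh1a1 and Aldh8a1 with 1.26. Aldh8a1 thus stood farthest from both genes with the highest heavy to light ratios. These differences describe 6 libraries that share rats within a diet.

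Other genes of the pathways were taken from 10 lists, of which 66 genes passed the minimum level. In total RNA 8 of the 66 were higher in WD and 9 lower, against the 17.7% and 22.7% of all loci given above, with a median log2 change of 0.06. In the light fraction 16 were higher and 18 lower, against 25.9% and 26.8% of all loci, and in the heavy fraction 10 were higher and 9 lower, against 21.7% and 25.8%. The heavy to light ratio was called higher for 35 of the 66 in CD and lower for 7, against 32.9% and 36.6% of all loci and 45.1% and 24.0% of the abundant loci. In WD it was called higher for 30 and lower for 8, against 31.4% and 38.5% of all loci and 52.6% and 23.2% of the abundant loci. For ribosome density, 16 were higher in WD and 21 lower, against 27.7% and 36.1%, with a median log2 change of 0.10. The shares of all loci given here are also those against which the counts of the single lists below stand, and with at most 13 genes a list no count is read as apart from them.

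Among other alcohol dehydrogenases, 0 of 3 genes were higher or lower in total RNA. Adhfe1, which oxidizes hydroxybutyrate, was at 117 FPKM in total RNA of CD and 134 in that of WD, and Adh7, an alcohol dehydrogenase typical of stomach, at 14.4 and 12.5. Other aldehyde dehydrogenases gave 1 of 6 genes higher in total RNA, Aldh1b1, a mitochondrial relative of Aldh2, at 0.877 FPKM in CD and 3.67 in WD from 2 and 8 inferred fragments. In the light fraction 3 of these 6 were higher in WD and 0 lower, against 25.9% and 26.8% of all loci. Aldh1l2, the mitochondrial formyltetrahydrofolate dehydrogenase, was at 2.49 FPKM in the CD light fraction and 15.8 in the WD light fraction, from 5 and 69 fragments, and its ribosome density had a log2 change of -2.32, the same direction as that of Aldh2. Aldh5a1, the succinate semialdehyde dehydrogenase, had a log2 change in ribosome density of 1.55, with heavy fraction levels of 3.41 FPKM in CD and 8.71 in WD.

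Of 4 other genes of ethanol and acetate metabolism, 0 were higher and 1 was lower in total RNA. This was Acss2, the cytosolic acetyl-CoA synthetase that uses acetate, at 9.18 FPKM in CD and 6.51 in WD, from 28 and 19 fragments. Cyp2e1, the microsomal ethanol-oxidizing cytochrome P450, was at 1357 FPKM in CD and 1533 in WD. Of 13 genes of retinoid metabolism, the pathway in which Adh4 and Aldh1a1 act, 3 were higher and 2 lower in total RNA, and 6 had a higher and 5 a lower ribosome density in WD, against 27.7% and 36.1% of all loci. Rdh11, a retinal reductase, was at 4.33 FPKM in CD and 11.6 in WD total RNA. Lrat, which esterifies retinol for storage in stellate cells, had a log2 change in ribosome density of 1.48.

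For the steps around formaldehyde and glutathione, 0 of 5 genes were higher or lower in total RNA, and 0 of 7 genes of the fatty aldehyde and phytol steps were. Cyp4f4, a fatty acid hydroxylase, had a log2 change in ribosome density of 1.49 while its total RNA level was 51.2 FPKM in CD and 62.1 in WD. Esd, which hydrolyses the glutathione adduct formed in formaldehyde clearance, had a log2 change in density of -1.33. The direction of these lists in density was mixed, with 0 higher and 2 lower of 5 in the former and 2 higher and 2 lower of 7 in the latter.

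In the pathways of the amino acid dehydrogenases, valine and thymine catabolism had 2 of 11 genes higher and 1 lower in total RNA. Acad8, the isobutyryl-CoA dehydrogenase upstream of Aldh6a1, was at 5.07 FPKM in CD and had a log2 change of 1.55 in WD, from 6 and 17 fragments. Lysine catabolism had 0 of 5 higher and 1 lower, Pipox, a peroxisomal pipecolate oxidase, at 42.6 and 29.9 FPKM. The kynurenine pathway had 1 of 7 higher and 2 lower. Those lower were Afmid, the formamidase of the pathway's second step, at 37.5 and 21.0 FPKM, and Qprt, which forms the nicotinate ribonucleotide, at 53.2 and 36.5 FPKM. The 1 higher was Acmsd, listed at 0 in CD total RNA and resting on 1 fragment in WD.

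Carnitine and polyamine metabolism, in which Aldh9a1 acts, had 1 of 5 genes higher and 2 lower in total RNA. Sat1, the polyamine acetyltransferase, was the higher one, at 48.1 FPKM in CD and 78.8 in WD, from 53 and 83 fragments. The 2 lower ones, Shmt1 and Paox, had at most 7 fragments in either total RNA library.

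**Figure D4:**
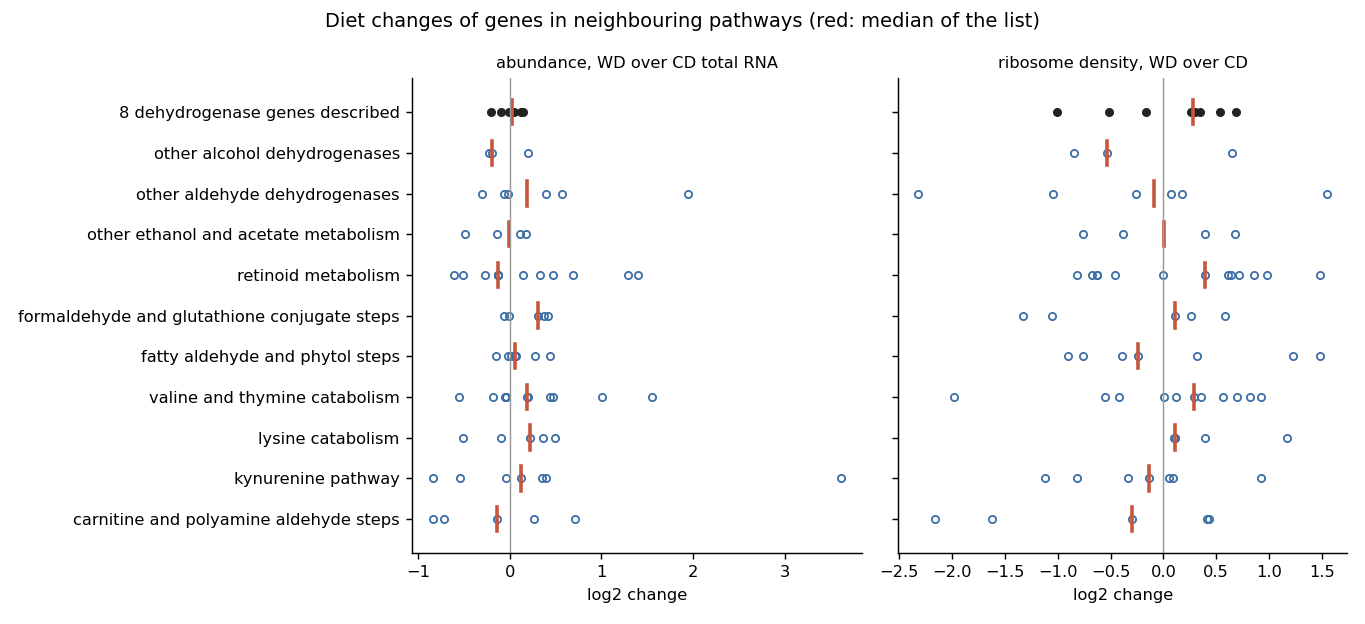
Log2 change of WD over CD in abundance (left) and in ribosome density (right) for the 8 dehydrogenase genes (black) and for list genes averaging 1 FPKM or more (blue circles), 1 row per list, with the median of each list in red. The 8 genes span -0.20 to 0.14 in abundance, in density Aldh2 lies farthest left and Adh4 farthest right of them, and the point farthest right in abundance is Acmsd, listed at 0 in CD.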

How the data were processed

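RNA of rat liver was measured in 6 pooled libraries, grouped by their labels, 1 per combination of diet and RNA. After ribosomal RNA depletion the authors used TopHat and the Rnor_6.0 assembly for alignment, and deposited FPKM values per locus, with lower and upper bounds, from the Cufflinks pipeline. The annotation is not given in the sources used here. The methods also describe a route for ribosome profiling reads, and whether the fraction libraries took it is not certain.

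Analyses were run in Python 3.11.15 (numpy 2.4.6, pandas 2.3.3, matplotlib 3.10.9, scipy 1.17.1). Log2 changes are those of the authors' FPKM values plus 0.1 FPKM, which understates changes of low genes, and calls were made on that scale. Ratios of the 8 genes are those of the levels themselves. The limits of 1.5 and 0.75 are those of the study for ribosome density, which set them on CD over WD. Here they were applied to WD over CD, and the inverted limits were tried as an alternative. Fragment numbers were the smallest whole numbers, up to 1500, that 1 step per gene and 1 factor per library explain. The tolerance was 0.001 of a fragment or, where larger, 1.5e-05 of the largest number. Fewer than 0.01 matches were to be expected by chance. Such numbers were found for 7705 of the loci compared (75.5%), and they are inferred up to a common multiple. Intervals at 95% are Clopper-Pearson or, for density, conditional odds ratio intervals. Scripts were tested on simulated data.

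The genes and lists were chosen with earlier results of these data known. Named genes are the 10 dehydrogenases, up to 4 per pathway list with the largest change in abundance or density, and the 3 loci most like Aldh2. The same search for Adh1 could not be made, since no locus carried that symbol. RefSeq (GRCr8) gave starts and gene order only. Alternatives were other pseudocounts, minimum levels, limits and scalings, and the heavy fraction over total RNA.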

Additional observations from a re-analysis of the deposited data

How the results depend on the processing

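No paired analysis was possible because each group has 1 library and the replicate numbers only name it. Depth limits the genes with few fragments most: in total RNA the interval of Aldh1a1 (0.572 to 1.77) was the widest. The intervals of Aldh1a1 contained 1 in every diet comparison, but so did those of Aldh7a1, which rested on more fragments. With limits of 2 and 0.5 the genes called were 1 of 8 in the light fraction, 0 in the heavy fraction, 3 for heavy over light in CD, 3 in WD and 1 for ribosome density, compared with 3, 1, 5, 8 and 3 as reported. With a lower limit of 1 over 1.5 the heavy fraction count was 0, also with the upper limit at 1 over 0.75, the study's limits inverted, an alternative chosen after seeing the data. With every library rescaled to the same sum over loci with a symbol, the count was 7 in the light fraction (1 higher, 6 lower) and 6 for ribosome density (5 higher, 1 lower). That rescaling brought the median log2 change of all loci to -0.29 in the light fraction, 0.26 for heavy over light in WD and 0.28 for density. It moved the share of higher among called loci from 49.1% to 28.3%, from 44.9% to 55.7% and from 43.4% to 58.3%. A rescaling over all loci, chosen after seeing the data, brought those medians to 0.69, 0.50 and -0.32 and those shares to 86.7%, 63.5% and 30.8%, and in CD heavy over light to 0.84 and 73.8%. The 8 genes then gave 2 higher and 0 lower in the light fraction, 1 and 0 in the heavy fraction, 7 and 0 for heavy over light in CD and in WD, and 0 and 3 for density. One to equal inferred fragments, also chosen after seeing the data, gave medians of -0.11 and -0.22 for heavy over light in CD and WD. The 8 genes then gave 3 higher and 1 lower in CD and 6 higher and 1 lower in WD. With the heavy fraction over total RNA, 3 genes were called in CD, 4 in WD and 0 for density, and 7 of 24 log2 changes took the other sign: 3 called ones, Aldh7a1 in WD (-0.24) and density of Adh4 (-0.28) and Aldh2 (0.32), and 4 not called, Aldh7a1 in CD (-0.21) and density of Aldh8a1 (-0.35), Aldh6a1 (-0.18) and Aldh7a1 (-0.04). The cause was not tested. Of the recomputed counts, 57 stayed within 1.5 times the reported count and 12 did not. This tally overstates stability, because it ignores direction. The heavy fraction count stayed at 1 with the rescaling over all loci, although it went from 1 lower to 1 higher. The other minimum levels could not change any count, since the lowest average among the 8 genes was 13.0 FPKM (Aldh1a1). Over all settings 26 of 312 log2 changes of single genes took the other sign, 15 of them with the rescaling over all loci.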
